A study of Homo sapiens with 6 samples.

Results

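The mitochondrial genome carries genes on both of its strands. The 5 genes described here, MT-ND6, MT-TQ, MT-TA, MT-TY and MT-TS1, are light-strand genes, a name for genes transcribed from the light strand. The hg38 annotation places them on the minus strand. They were chosen by their values in these same 6 libraries, in which growth factor-depleted replicates 2 and 3 differed from growth factor-depleted replicate 1, so their levels are given as a description with no test. They are 5 of the 19198 genes in the table and 5 of the 9 mitochondrial genes that Gencode places on the minus strand. Of the other 4, MT-TE and MT-TP are in the table, while MT-TN and MT-TC are not in it.

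RNA-Seq was carried out on MCF10A, an immortalized line of human mammary epithelial cells that does not form tumors. The 3 control samples were grown with insulin at 10 µg/ml, EGF at 20 ng/ml, cholera toxin at 100 ng/ml and hydrocortisone at 0.5 µg/ml, in DMEM:F12 with 5% horse serum. The 3 growth factor-depleted samples were kept in the same medium and serum without these 4 additions. The study used depletion as a trigger of epithelial to mesenchymal transition. All 6 samples are of 1 cell line, the day of RNA harvest is not given in the sources used here, and the labels do not say whether replicates were separate cultures, so spread between them may be technical.

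Mitochondrial DNA is transcribed by the polymerase POLRMT into long RNAs that span many genes. MT-ND6 is the single mRNA of the light strand and encodes a membrane subunit of complex I of the respiratory chain. The other light-strand genes are tRNAs, which are cut out at their ends by RNase P and ELAC2. Most of the light-strand transcript carries no gene and is normally removed by the helicase SUPV3L1 with the nuclease PNPT1, a process aided by GRSF1 on RNA rich in G. Heavy-strand RNA holds the other 12 mRNAs, both rRNAs and the remaining tRNAs.

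The RNA of the light-strand genes is distinctive in its letters, which are shown here because the members share this feature. The genes were listed by strand and G content differs between the strands, so the shared feature came with the choice. The sequences below are those of the hg38 mitochondrial chromosome, read 5′ to 3′ along the minus strand at the Gencode positions, written as DNA. In the 6 tRNA genes the capitals mark the anticodon. The glutamine, alanine, tyrosine and serine tRNAs are listed first, followed by the glutamate and proline tRNAs.
MT-TQ, chrM:4329-4400: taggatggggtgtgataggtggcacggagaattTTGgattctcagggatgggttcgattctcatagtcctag
MT-TA, chrM:5587-5655: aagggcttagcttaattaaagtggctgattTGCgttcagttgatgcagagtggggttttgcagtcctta
MT-TY, chrM:5826-5891: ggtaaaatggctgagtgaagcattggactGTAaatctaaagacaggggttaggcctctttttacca
MT-TS1, chrM:7446-7514: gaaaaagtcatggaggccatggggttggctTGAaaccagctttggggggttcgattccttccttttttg
MT-TE, chrM:14674-14742: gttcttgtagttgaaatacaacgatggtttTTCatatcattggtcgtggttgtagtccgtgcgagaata
MT-TP, chrM:15956-16023: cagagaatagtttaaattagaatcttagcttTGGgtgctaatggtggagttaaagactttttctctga

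MT-ND6 (ENSG00000198695) covers 525 bases at chrM:14149-14673. Its first 150 bases, at chrM:14524-14673, are shown with each run of at least 3 G in capitals.
MT-ND6: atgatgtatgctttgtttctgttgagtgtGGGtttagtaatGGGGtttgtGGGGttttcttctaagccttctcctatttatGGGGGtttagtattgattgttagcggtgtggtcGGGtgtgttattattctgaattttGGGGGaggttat
These 150 bases hold 6 such runs. Of 9082 windows of the same length in the 12 heavy-strand mRNA genes, read along their own strand, 35.0% held at least 1 run and 0 held as many as 6. Over its whole length MT-ND6 was 35.62% G and 7.05% C, with 19 runs of at least 3 G. The heavy-strand mRNA genes were between 6.28% and 16.21% G and held at most 5 runs each. In tRNA genes the number of runs overlapped, at 0 to 3 in light-strand genes and 0 to 1 in heavy-strand genes. MT-TE held 0. G content did not overlap between the strands, at 23.53% to 36.11% in the 9 light-strand genes and 6.28% to 19.12% in the 28 heavy-strand genes. A run of G is a feature of the letters and was not tested as a site of any factor.

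**Figure D1:**
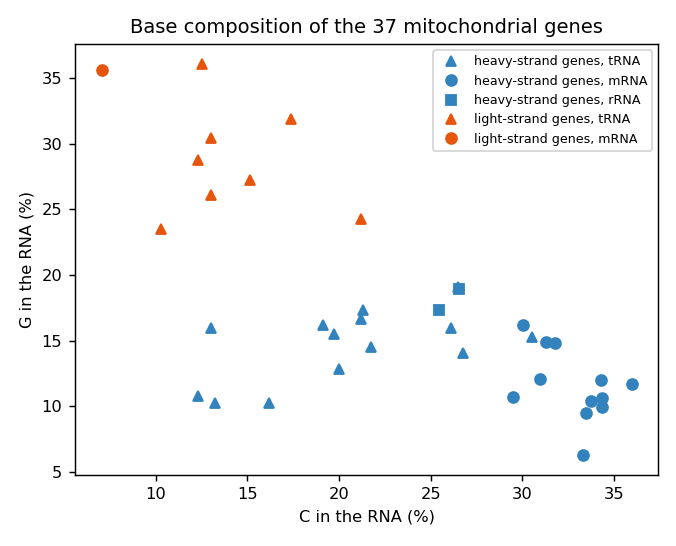
Share of G (vertical axis, percent of the RNA) against share of C (horizontal axis, percent of the RNA) in each of the 37 mitochondrial genes, with color for the strand and symbol shape for tRNA, mRNA or rRNA. The light-strand genes lie between 23.53% and 36.11% G, all above the heavy-strand genes, of which the highest is at 19.12%.

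The libraries held 7472418 to 28672630 reads assigned to genes, of which 0.576% to 2.784% were mitochondrial. The highest mitochondrial share was in control replicate 3 and the share of the growth factor-depleted libraries was 0.815% to 1.053%. Growth factor-depleted replicate 1 was far below the other 5 libraries in 3 of 7 epithelial markers. CDH1, the adhesion protein of epithelial junctions, was at 20039, 13132 and 12961 in the controls (normalized counts, in the order of replicates 1 to 3 as throughout) and at 609.6, 13234 and 13118 after depletion. KRT5, a basal keratin, was at 562 in growth factor-depleted replicate 1 and between 10908 and 38503 in the other 5, and EPCAM, an epithelial surface protein, at 152.9 against 887.3 to 3990. The other 4 markers, all keratins, were not low there. KRT14 was at 980.3 in growth factor-depleted replicate 1 against 12.79 to 306.3 in the other 5, KRT17 at 19236 and KRT18 at 8660 exceeded every control, and KRT8 at 7755 lay within the controls. Of the 7 epithelial markers 0 passed the limma test, 3 had an unadjusted p under 0.05, edgeR called 0 and DESeq2 called 1. Their summed level was 36908 to 85135 in controls and 37955 to 183128 after depletion. The labels call the cells luminal ductal. Of 4 luminal markers, PGR is not in the table, and ESR1, GATA3 and FOXA1 summed to 671.7 to 1257 normalized counts in controls and 368.9 to 795.4 after depletion, far below the keratin KRT5 in 5 of the 6 libraries. Among 5 markers of leukocytes, endothelium and fat cells, ADIPOQ is not in the table, PTPRC reached at most 13.77 normalized counts, and the 4 markers in the table summed to 155.4 to 1043 in controls and 250.5 to 1627 after depletion. Of the 3 tested, limma called CDH5, an endothelial cadherin, which was at 4.101 to 8.773 in controls and at 25.63, 118.7 and 100.6 after depletion (adjusted p = 0.0282 in limma). PECAM1, another endothelial marker and the largest part of the sum in 5 libraries, was at 998.8, 249 and 91.49 in controls and at 1582, 110.2 and 156.5 after depletion. Their part in the results below was not tested.

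MT-ND6 RNA was very abundant in growth factor-depleted replicates 2 and 3 and scarce in replicate 1. Its normalized counts were 1069, 244.3 and 585.3 in control replicates 1, 2 and 3. They were 76.88, 15763 and 10169 in growth factor-depleted replicates 1, 2 and 3. The lowest and the 2 highest values of MT-ND6 were thus all in the depleted group, whose range spanned that of the controls. The group means were 632.9 ± 414.4 with growth factors and 8670 ± 7950 without (SD, n = 3 each). Replicates 2 and 3 without growth factors held 14.75-fold and 9.513-fold as much as the highest control, and replicate 1 held 0.1215 of the control mean. The mean difference, 2.11 on the log2(normalized count + 1) scale, was smaller than the SD of 4.25 among the 3 depleted libraries on that scale. The values rested on 417 to 853 reads in controls and on 84, 24041 and 4548 reads without growth factors. In bulk RNA, more transcript per cell and more cells that hold it cannot be told apart.

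The 4 tRNA genes were also highest in growth factor-depleted replicates 2 and 3, at lower normalized counts, while the order of the other 4 libraries differed between genes. MT-TQ (ENSG00000210107), the glutamine tRNA, was at 10.03, 18.16 and 48.2 normalized counts in controls. Without growth factors it was at 13.73, 2024 and 1514. Its 2 highest libraries stood 41.99-fold and 31.4-fold above the highest control, the widest gap of the 5 genes. MT-TA (ENSG00000210127), the alanine tRNA, was at 7.519, 2.343 and 11.8 with growth factors and at 4.576, 235.4 and 154.3 without. Here the highest control was exceeded 19.94-fold and 13.07-fold, and replicate 1 without growth factors lay between the controls.

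MT-TS1 (ENSG00000210151), one of the serine tRNAs, was at 6.266, 1.172 and 12.79 normalized counts in controls and at 2.746, 417.7 and 143.1 after depletion. It varied most between growth factor-depleted replicates 2 and 3, by 2.919-fold, whereas the other 4 genes differed between them by 1.337-fold to 1.55-fold. Its low values rest on very few reads, with 2 in control replicate 2 (exact Poisson 95% interval 0.242 to 7.22 reads) and 3 in growth factor-depleted replicate 1 (0.619 to 8.77). MT-TY (ENSG00000210144), the tyrosine tRNA, had the lowest mean of the 5 after depletion and in controls, at 6.266, 4.687 and 4.919 in controls and 3.661, 51.14 and 35.78 after depletion. It had the smallest gap, with replicates 2 and 3 at 8.162-fold and 5.709-fold the highest control.

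In all 5 genes growth factor-depleted replicate 2 was the highest library and replicate 3 the next, and growth factor-depleted replicate 1 was below the control mean, at 0.1215 to 0.692 of it. The groups therefore overlapped in every gene of the 5 through replicate 1. That library was also below the control mean in all 12 heavy-strand mRNA genes, at 0.267 to 0.6971 of it. In the 5 light-strand genes the difference of means on the log2 scale ranged from 1.73 for MT-TY to 4.03 for MT-TQ. Their median was 3.04, against -0.03 over all 16988 genes tested. Without growth factor-depleted replicate 1 that median was 4.75, and without replicate 2 it was 1.95. As background, limma called 6.33% of the 16988 genes, 4.36% as higher and 1.97% as lower without growth factors. This share is given for scale and the 5 genes are not read against it, since the same libraries chose them. All 5 passed the filter of a mean of at least 10 normalized counts, which the 2 high libraries alone would have met for each of them.

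**Figure D2:**
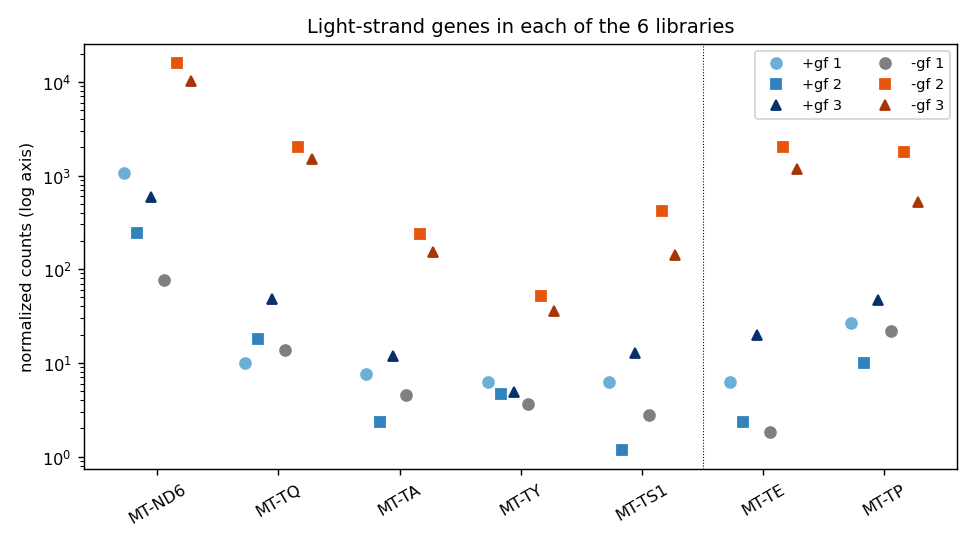
Normalized counts (vertical axis, log scale) of the 5 genes and, right of the dotted line, of MT-TE and MT-TP, with 1 point for each of the 6 libraries (+gf, with growth factors; -gf, without). The points of -gf 2 and -gf 3 lie above every control in all 7 genes, while -gf 1 lies below the median of the controls, as for MT-ND6 at 76.88 against 244.3 to 1069.

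The pair of light-strand genes in the table outside the chosen set were also highest in growth factor-depleted replicate 2 and next in replicate 3. MT-TE, the glutamate tRNA directly next to MT-ND6 on the same strand, was at 6.266, 2.343 and 19.67 normalized counts in controls and at 1.831, 2033 and 1160 after depletion. MT-TP, the proline tRNA, was at 26.32, 9.959 and 47.22 in controls and 21.97, 1764 and 518.7 after depletion. Growth factor-depleted replicates 2 and 3 thus exceeded the highest control in 7 of 7 light-strand genes in the table. These values come from the libraries that chose the 5 genes and are no independent support.

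Counts depend on gene length, so levels were also divided by it. Per kilobase of gene, MT-ND6 was at 30020 normalized counts and MT-TQ at 28110 in growth factor-depleted replicate 2, and at 19370 and 21020 in replicate 3. MT-TE reached 29470 and 16820 per kilobase in these libraries, and MT-TP 25940 and 7629. MT-TA, MT-TS1 and MT-TY were far lower, between 542 and 6053 per kilobase in the same libraries. In the other 4 libraries the 4 chosen tRNA genes were at 16.98 to 669.5 per kilobase and MT-ND6 at 146.4 to 2036. The tRNA genes, at 66 to 72 bases, are shorter than the reads of 100 bases, so an untrimmed read counted on them reaches beyond the gene. Their levels are thus not amounts of mature tRNA, and per kilobase they cannot be set directly against MT-ND6.

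**Figure D3:**
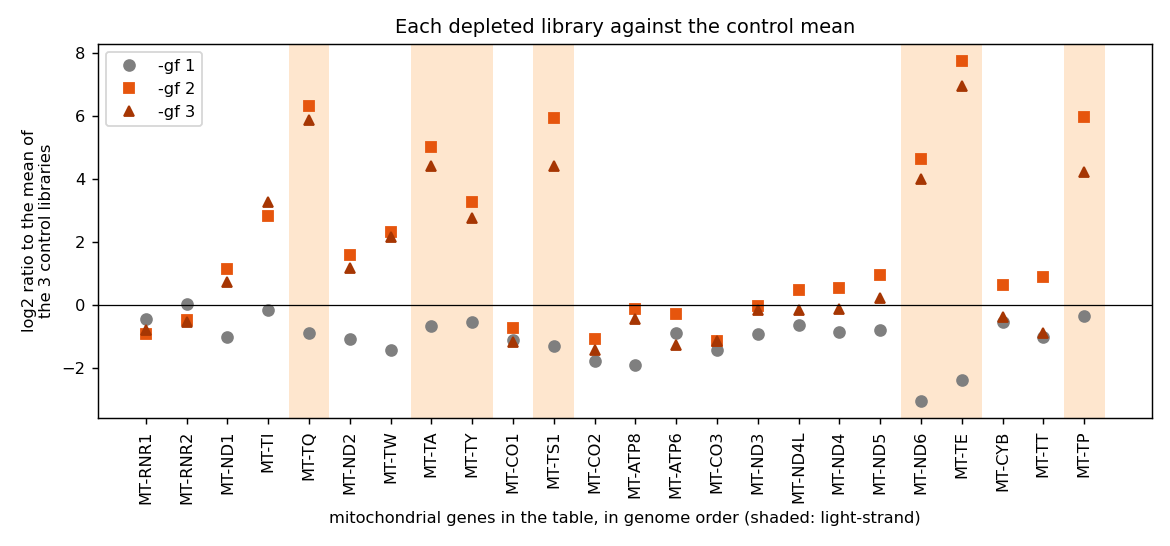
Level of the 3 growth factor-depleted libraries as a log2 ratio to the control mean (vertical axis) for the 24 mitochondrial genes in the table, in their order on the chromosome (horizontal axis), with light-strand genes shaded. The points of -gf 2 and -gf 3 stand far above 0 in the shaded genes, at 24.91-fold and 16.07-fold the control mean for MT-ND6. They are nearer to 0 elsewhere except at the heavy-strand tRNA gene MT-TI. The points of -gf 1 are below 0 in every shaded gene and in every unshaded gene except MT-RNR2.

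MT-ND6 changed its place among the 13 mitochondrial mRNAs. Ranked by normalized counts per kilobase it was 8th, 12th and 13th in control replicates 1, 2 and 3, and 13th in growth factor-depleted replicate 1. It was 1st in growth factor-depleted replicate 2 and 2nd, after the cytochrome oxidase subunit MT-CO3, in replicate 3. Its level was 98.2%, 31.1% and 16.5% of the median mitochondrial mRNA in controls, and 7.2%, 560.7% and 572.9% after depletion. The controls themselves thus spread widely in this measure.

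The ratio of light-strand to heavy-strand reads within a library does not depend on how libraries are scaled. Reads on the 5 genes came to 0.9936%, 0.3453% and 0.2934% of the reads on the 12 heavy-strand mRNA genes in control replicates 1 to 3. After depletion they came to 0.1741% (exact 95% interval 0.1432 to 0.2097), 19.85% (19.59 to 20.1) and 16.98% (16.5 to 17.48), intervals that cover counting error only. The ratio was thus 19.98-fold and 17.09-fold the highest control in replicates 2 and 3, and below the lowest control in replicate 1. With MT-RNR1 and MT-RNR2 as the denominator it was 5.866%, 1.497% and 0.343% in controls and 0.1362%, 35.1% and 23.37% after depletion, so that replicates 2 and 3 stood at 5.984-fold and 3.984-fold the highest control. As group means the ratio to the 12 heavy-strand mRNA genes was 0.5441% ± 0.3901 with growth factors and 12.33% ± 10.63 without (SD, n = 3 each).

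MT-ND6 and the tRNAs did not keep a fixed proportion in the low libraries. MT-ND6 against its opposite-strand neighbor MT-ND5, another complex I subunit, came to 47.89%, 16.82% and 10.64% in controls and to 4.334%, 262.7% and 280.7% after depletion. The 4 tRNAs against the heavy-strand mRNAs stayed between 0.02719% and 0.04235% in the controls and growth factor-depleted replicate 1, and reached 2.928% and 2.61% in replicates 2 and 3. The tRNAs against MT-ND6 came to 2.814%, 10.79% and 13.28% in controls and to 32.14%, 17.31% and 18.16% after depletion. The wide range of the 5-gene ratio among the 4 low libraries therefore came from MT-ND6.

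**Figure D4:**
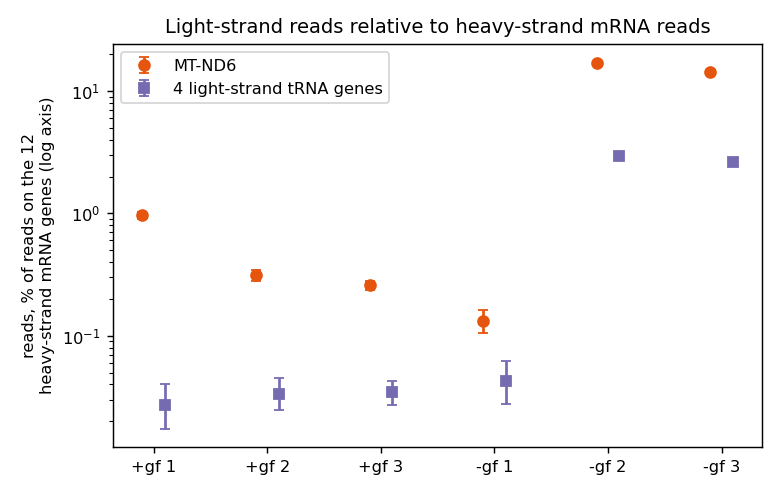
Reads on MT-ND6 (circles) and on the 4 chosen tRNA genes (squares) as a percent of reads on the 12 heavy-strand mRNA genes (vertical axis, log scale) in each library, with exact 95% intervals for counting error. The tRNA points stay between 0.02719% and 0.04235% in 4 libraries and reach 2.928% and 2.61% in -gf 2 and -gf 3, and the MT-ND6 points are also highest in those libraries but vary among the other 4.

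The heavy-strand mRNAs, transcribed from the same genome, had smaller gaps between libraries. Growth factor-depleted replicates 2 and 3 exceeded the highest control in 3 and 1 of the 12, at 0.2917-fold to 1.452-fold and 0.2013-fold to 1.103-fold of it, against 8.162-fold to 41.99-fold and 5.709-fold to 31.4-fold in the 5 light-strand genes. Of the 12, limma called 0 between the groups, and 2 had an unadjusted p under 0.05. On the recovered reads edgeR called 0, and DESeq2 called 2 (MT-CO2 and MT-CO3, named here because the count is small). Their log2 differences ran from -1.29 to 0.96 with a median of 0.06, 6 above 0 and 6 below. For scale, of all 16988 genes tested 3400 had an unadjusted p under 0.05 in limma, edgeR called 971 and DESeq2 2112. Between growth factor-depleted libraries, replicate 2 exceeded replicate 1 by 1.231-fold to 6.336-fold in these 12 genes and replicate 3 stood at 0.7682-fold to 4.814-fold of replicate 1. Without growth factor-depleted replicate 1, limma again called 0 of the 12. The light-strand genes were not tested in this contrast, so these counts do not compare the strands.

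MT-ND5, whose gene abuts MT-ND6 on the other strand, was at 2232, 1452 and 5501 normalized counts in controls and 1774, 6001 and 3622 after depletion (log2 difference 0.37, limma adjusted p = 0.788). MT-CO1, a subunit of cytochrome oxidase that lies between MT-TY and MT-TS1, was at 36159, 26578 and 80629 and then at 21998, 28609 and 21127 (-0.85, limma adjusted p = 0.432). MT-CYB, a subunit of complex III, had an adjusted p of 0.815 in limma, and MT-ND1, of complex I, 0.679. Control replicate 3 was the highest control for the heavy-strand mRNAs, and the controls spread by 2.388-fold to 5.425-fold. The rRNAs MT-RNR1 and MT-RNR2, targets of the ribosomal depletion reagent, summed to 18084 to 193309 normalized counts in controls and 51418 to 74599 after depletion, with limma adjusted p = 0.848 and 0.787. Without control replicate 3 both were called higher after depletion, by 1.74 for MT-RNR1 (limma adjusted p = 0.0106) and 1.66 for MT-RNR2 (0.0282) on the log2 scale.

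Of 14 heavy-strand tRNA genes 3 are in the table. MT-TI, the isoleucine tRNA that overlaps MT-TQ by 3 bases on the opposite strand, was at 11.28, 5.273 and 44.27 normalized counts in controls and 18.31, 145.6 and 194.5 after depletion (limma adjusted p = 0.231). MT-TW was at most 13.77 in controls and at 3.661, 49.17 and 44.72 after depletion. MT-TT was at 33.84, 62.1 and 52.14 and then at 24.71, 91.79 and 26.83. MT-TI and MT-TW were thus also highest in growth factor-depleted replicates 2 and 3, and MT-TT was not. In these libraries MT-TI was far below MT-TQ but near MT-TA, at 235.4 and 154.3, and MT-TW was near MT-TY, at 51.14 and 35.78. Replicates 2 and 3 exceeded replicate 1 by 7.951-fold and 10.63-fold in MT-TI and by 13.43-fold and 12.21-fold in MT-TW, against 13.97-fold and 9.772-fold in MT-TY.

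The counting has limits that bear on these levels. The libraries were made with a stranded kit, but the strand setting of the counting and its treatment of reads with several matches are not given in the sources used here, so reads from the opposite strand cannot be told apart from reads of these genes. The 562 genes named as antisense summed to 33647 and 33016 normalized counts in growth factor-depleted replicates 2 and 3, within the 27957 to 45889 of the other 4 libraries. This sum does not measure reads from the opposite strand of mitochondrial genes, whose part was not tested. The nuclear genome holds copies of mitochondrial DNA. The whole of MT-TA, MT-TQ and MT-TS1 was found without a mismatch on hg38 chromosome 1, at chr1:630757-630825, chr1:629499-629570 and chr1:632617-632685, and MT-TY with 1 mismatch at chr1:630996-631061, so their reads are uncertain, as are those of MT-TE, found whole without a mismatch at chr5:94569467-94569535. MT-TA had 2 such whole copies without a mismatch, of which 1 is given here, and the nearest match of MT-TP differed at 6 of 68 bases. MT-ND6 had no such copy, and its nearest match, at chr5:134924123-134924646, differed at 26 of 524 bases. Of 5 mitochondrial pseudogenes in the table the 2 most abundant are named after the heavy-strand mRNA genes MT-ATP6 and MT-ND2. Their levels therefore cannot show whether nuclear copies of the light-strand genes took reads. MTATP6P1 was at 154.1, 129.5 and 542 in controls and 114.4, 316 and 185.6 after depletion, and MTND2P28 at 56.4, 49.8 and 234.1 and then 75.97, 187.5 and 96.15.

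The genes whose pattern over the 6 libraries was most like that of MT-ND6 were found from the root-mean-square difference of log2 profiles, each centred on its own mean, among 16987 genes. The nearest was COL22A1, a collagen, at a difference of 0.73, with 11.28, 1.758 and 11.8 normalized counts in controls and 0.9153, 87.2 and 93.91 after depletion. ODAPH, a phosphoprotein of tooth enamel, followed at 0.94, with 11.28, 2.343 and 7.87 and then 5.492, 354.7 and 201.2. MT-TS1 was 3rd at 0.97, MT-TA 4th at 0.98, and FGF13, an intracellular member of the fibroblast growth factor family, 5th at 1.05. MT-TQ was 32nd, MT-TY 46th and, outside the chosen set, MT-TP 7th and MT-TE 53rd. The chosen genes were picked for differences among these same libraries, so their ranks are no independent support. Of the heavy-strand genes, the tRNA genes MT-TI and MT-TW were 90th and 183rd, and the nearest mRNA, MT-ND2, was 223rd. The nuclear genes near the top were far less abundant than MT-ND6, which was at 15763 and 10169 in the libraries where COL22A1 was at 87.2 and 93.91.

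Nuclear genes that make, cut, modify, charge or degrade mitochondrial RNA, or build complex I, were tested by limma in 8 lists of 73 genes, all of which passed the filter. Lower levels predominated after growth factor depletion. Of the 73, 3 fell (4.11%, where 6.33% of all genes were called and 1.97% were called lower) and 0 rose, and 62 had a log2 difference below 0 (84.9%, against 51.9% of all genes tested). The median was -0.44, against -0.03 over all genes. Without control replicate 3 the number called was 14 (19.2%, against 14.9% of all genes tested without that library), and without any 1 of the other libraries it was 1. The 5 lists with no call by limma held 48 genes, of which 7 had an unadjusted p under 0.05, edgeR called 0 and DESeq2 called 2. Over all 16988 genes tested the counts were 3400 with an unadjusted p under 0.05, 971 called by edgeR and 2112 by DESeq2.

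LRPPRC, which with SLIRP binds and stabilizes mitochondrial mRNAs, was at 7654, 7318 and 5101 normalized counts in controls and at 2891, 2847 and 2632 after depletion. The groups did not overlap, and LRPPRC fell by 1.24 on the log2 scale (SE 0.289, limma adjusted p = 0.0415). FASTKD1, a mitochondrial RNA-binding protein of the FASTK family, was at 1090, 1164 and 767.3 and then at 288.3, 508.8 and 413.6, a fall by 1.33 (SE 0.324, limma adjusted p = 0.0484). Both calls were lost with edgeR, with adjusted p = 0.0528 for LRPPRC and 0.0573 for FASTKD1. Leaving out any 1 library other than control replicate 3 also ended them.

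PPARGC1B, a coactivator of genes for mitochondrial biogenesis, changed most among the 73. It was at 899.8, 738.8 and 414.2 normalized counts in controls and at 21.97, 84.58 and 35.78 after depletion, and fell by 3.97 on the log2 scale (SE 0.548, limma adjusted p = 0.00488). It was called with every library left out in turn. The 3 called genes, LRPPRC, FASTKD1 and PPARGC1B, were low in all depleted libraries, growth factor-depleted replicate 1 included. The 6 biogenesis regulators as a list were split, with 3 above 0 and 3 below on the log2 scale (median -0.35). Among those above 0, PPARGC1A was at 96.5, 19.33 and 378.7 in controls and 558.3, 347.5 and 116.3 after depletion (1.64, limma adjusted p = 0.427).

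The genes for mitochondrial transcription and replication all had log2 differences below 0 (14 of 14, median -0.41). By limma 0 were called and 2 had an unadjusted p under 0.05, by edgeR 0 were called, and by DESeq2 2 (MTERF1 and TOP1MT, the latter named because the count is small). Without control replicate 3 limma called 2. POLRMT, the polymerase, differed by -0.36 (limma adjusted p = 0.605), and TFAM, which binds the promoters and packages the DNA, by -0.66 (limma adjusted p = 0.331). TEFM, the elongation factor, was at -0.11 (adjusted p = 0.897 in limma), and MTERF1, which binds within a leucine tRNA gene and blocks transcription, was at 468.7, 553.6 and 638.4 in controls and 181.2, 295 and 207.9 after depletion, a difference of -1.30 that just missed the threshold (limma adjusted p = 0.0505). Of the 12 processing genes 1 fell. ELAC2, which cuts at the tRNA 3′ end, differed by -0.47 (limma adjusted p = 0.503), PRORP, the nuclease of mitochondrial RNase P, by 0.03 (0.979), and FASTK, which is needed for MT-ND6 mRNA, by -0.44 (0.457).

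Of the 7 genes of RNA decay and stability 1 fell and none rose by limma, the count by edgeR was 0 and by DESeq2 1. SUPV3L1 was at 748.2, 814.3 and 608.9 normalized counts in controls and 461.3, 438.6 and 541.1 after depletion (log2 difference -0.59, limma adjusted p = 0.281). PNPT1 was at 1179, 1407 and 547 and then 662.7, 618.9 and 547.8 (-0.67, limma adjusted p = 0.386). GRSF1 was at 2804, 3041 and 1855 and then 1866, 2075 and 2044 (-0.33, limma adjusted p = 0.595). SUPV3L1 was lower in every depleted library than in every control without passing the test, while PNPT1 and GRSF1 overlapped. PNPT1 passed the test in limma without control replicate 3 (-1.08, adjusted p = 0.0248). The part of these genes in the light-strand levels was not tested. SLIRP differed by -0.32 (limma adjusted p = 0.832).

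The enzymes that charge the chosen tRNAs and the glutamate tRNA were 7 genes with 0 called by limma, by edgeR and by DESeq2, 0 with an unadjusted p under 0.05, and a median of -0.48. SARS2, for serine, differed by -0.89 (limma adjusted p = 0.272). AARS2, for alanine, differed by -0.07 (limma adjusted p = 0.934), and YARS2, for tyrosine, by less than 0.01 in size, with its direction not kept between scalings. QRSL1, part of the complex that turns glutamate into glutamine on MT-TQ, differed by -0.49 (limma adjusted p = 0.516). The 12 tRNA modification genes (median -0.37), the 7 nuclear core subunits of complex I (-0.66) and its 8 assembly factors (-0.37) had 0 calls each by limma, edgeR and DESeq2, and 5 of these 27 had an unadjusted p under 0.05. Without control replicate 3 limma called 1 of the charging genes and 3 of the core subunits.

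**Figure D5:**
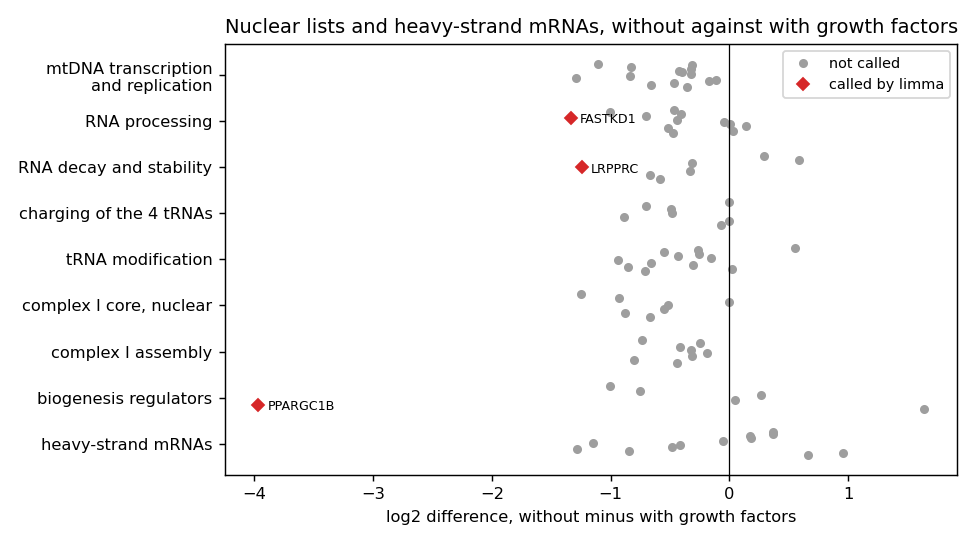
Log2 difference without minus with growth factors (horizontal axis) for each gene of the 8 nuclear lists and of the 12 heavy-strand mRNAs (rows), 1 point per gene, with red diamonds for genes called by limma. Most nuclear genes lie below 0, and the called genes are LRPPRC, FASTKD1 and PPARGC1B, the last at -3.97.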

How the data were processed

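The authors prepared rRNA-depleted total RNA (TruSeq Stranded, Ribo-Zero Gold), sequenced single-end reads of 100 bases, trimmed with cutadapt 1.6, mapped to hg38 with TopHat2, counted with HTSeq 0.6 on Gencode v22 and normalized with DESeq2 1.8.1 in R 3.2.0. The deposited values are this normalized signal, that is counts divided by size factors and not by gene length. Whole reads were recovered for 100% of values (tolerance 0.01 read). Of 19198 identifiers 18913 were named with Gencode v44.

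Groups came from the labels, which give 3 samples per condition, while the design text gives 2 replicates. limma 3.58.1 in R 4.3.3 (lmFit, eBayes with trend) was run on log2(normalized count + 1) for genes with a mean of at least 10, with Benjamini-Hochberg adjustment over all of them, and a gene was called at adjusted p under 0.05 and at least 2-fold. The fit was tested on simulated data. The chosen genes got no test. Depth was 7472418 to 28672630 reads, so 3 reads are 1.758 to 6.708 normalized counts. Intervals are exact and cover counting error only.

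The members and lists were chosen with earlier results of these data known. Named genes are the 5 members, listed genes passing the test, a preset group of mitochondrial and nuclear genes, the 5 genes nearest to MT-ND6, and mitochondrial pseudogenes with a mean of at least 100. Sequences came from hg38, and nuclear copies were sought with BLAST 2.17.0. Alternatives were other pseudocounts, filters and scalings, limma without trend, a replicate block, each library left out, and edgeR 4.0.16 and DESeq2 1.42.0 on the recovered reads. Tables were handled in Python 3.11.15 with pandas 2.3.3 and numpy 2.4.6, intervals came from scipy 1.17.1, and plots from matplotlib 3.10.9.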

Additional observations from a re-analysis of the deposited data

How the results depend on the processing

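The number of genes called over the whole table, 1076, became 2112 with DESeq2 and 1706 at an adjusted p under 0.1, and ranged from 445 (without growth factor-depleted replicate 2) to 2483 (without control replicate 3) when 1 library was left out. The 3 calls in the nuclear lists became 6 with DESeq2 and 1 with edgeR, with limma without trend and with the replicate block, and leaving out 1 library gave 1 to 14, the 14 without control replicate 3. Of the heavy-strand mRNAs DESeq2 called 2. The median log2 difference of the 5 light-strand genes, 3.04, ranged from 1.95 to 4.75 when 1 library was left out. The cause of these differences was not tested.

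Some values that were not called with all 6 libraries changed direction. MT-RNR1 became -0.72 with DESeq2 and -0.69 with edgeR, and MT-RNR2 -0.31 and -0.28. YARS2 became 0.048 after scaling to the same total and 0.041 with mitochondrial genes left out of that total. Leaving out 1 library gave AARS2 -0.24 to 0.11, MT-CYB -0.069 to 1.15, MT-ND5 -0.053 to 0.91, MT-RNR1 -0.26 to 1.74, MT-RNR2 -0.014 to 1.66, PRORP -0.15 to 0.18, SLIRP -1.07 to 0.23 and YARS2 -0.34 to 0.19. Both rRNAs were called at their highest value, without control replicate 3. The log2 difference of the light to heavy-strand ratio, 3.06, was 1.74 with the rRNAs as denominator.

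The replicate numbers are not said to mark a shared culture or day, and same-numbered samples correlated at -0.073, -0.283 and -0.323 in their deviations from the group means, so they did not deviate together. With the replicate block 967 genes were called, and in the nuclear lists only PPARGC1B.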
